A study of Capra hircus with 3 samples.

Results

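The interferon-stimulated and interferon pathway genes of Arbas Cashmere goat skin were taken from a sheep gene expression array. A spot that was no control belonged to them when its gene name began with ISG, BST-2, BST2, MX, OAS, IFIT or IRF, or when its description on the array held interferon, oligoadenylate synthetase, tetherin or myxovirus. Chemokines were left out. This rule found 16 genes with 21 probes among 14363 named records with 15008 probes. The genes were 6 induced genes (ISG17, BST-2B, MX1, MX2, TC57200 and TC54586), 4 interferon regulatory factors (IRF1, IRF2 and IRF3 are described here), 2 receptor chains (IFNAR1E and IFNAR2) and 2 interferons (IFN1 and IFNG). The remaining 2, the interleukins IL18 and IL6, were matched only by words of their descriptions and are given apart. No OAS or IFIT gene was found by the rule.

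Whole skin from one side of the body was sampled in July from 6 female goats that were 2 years old. The short photoperiod goats grazed, ate and drank outside for 7 h a day and were kept for the remaining time in a shed at about 0.1 lux, 1 degree colder than outside. The natural photoperiod goats grazed in natural conditions, and the management was otherwise the same for both groups. Each of the 3 arrays compared 1 short photoperiod goat, labeled with Cy5, with 1 natural photoperiod goat of the same parent, labeled with Cy3. The array titles write "LongPhotoperiod" for the control that the other labels call natural.

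Interferons are secreted signalling proteins of the immune defence. Type I interferons are released by cells that sense foreign nucleic acid and interferon gamma by activated T and NK cells. Type I interferons bind a receptor of the chains IFNAR1 and IFNAR2, and interferon gamma binds a receptor of its own. Both activate STAT transcription factors, which with the interferon regulatory factors switch on a large set of induced genes, many of them antiviral. In skin, keratinocytes, fibroblasts and resident leukocytes can all respond.

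The members were measured on arrays with a median intensity of 4587 to 7120 in Cy5 and 2688 to 3911 in Cy3, and 18 of the 21 probes were well above background in both dyes on every array. Values are log2 ratios of short over natural photoperiod, so that -1 is a level 2-fold lower under the short photoperiod. The levels of single goats are log2 intensities after the dyes and arrays were brought to one scale, and are compared only within a probe. The dyes were swapped on 0 arrays, so a dye bias of a probe would sit in its ratio on every array. All arrays lay on 1 slide with 1 scan time. Their number limits the precision.

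The probes of 4 of the induced genes with the largest shifts are shown here, so that what was measured can be seen. They are 60-base oligos of the sheep array hybridized with goat RNA. That of ISG17 is given whole, and the other 3 by their first 30 bases. The longest run shared by the MX1 and MX2 probes was 5 bases, and an induced gene's probe shared no more than 13 bases with any probe of another name on the array.
ISG17: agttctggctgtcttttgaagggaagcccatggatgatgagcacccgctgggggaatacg
MX1: tttgtgaatgcacacagaagcctattcctt
MX2: gcaccctcttacctgcctgcttataagtca
TC57200: ggcagcagtttatagacacagattgtcaac

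The induced genes had lower levels under the short photoperiod on replicates 1 and 3 but not throughout on replicate 2. The median log2 ratio of their 6 probes was -1.28, -0.18 and -2.83 on replicates 1, 2 and 3, where the median of all tested probes was 0.00, 0.00 and -0.01. In whole skin, fewer cells of a type cannot be told apart from less RNA per cell. Of the 6 probes, 5 had a mean log2 ratio at or below -1, those of ISG17, BST-2B, MX1, MX2 and TC57200, against 64 of 14977 tested probes (0.427%). No member had a mean of 1 or more, which was found for as large a share of all probes (0.427%). The study selected ISG17 and BST-2B on these same arrays, so their place in this count is not independent evidence. Limma called 0 of the 21 probes at an adjusted p under 0.05, and the members' adjusted p ranged from 0.198 to 0.992. Over all tested probes limma called 1 (0.00668%).

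**Figure D1:**
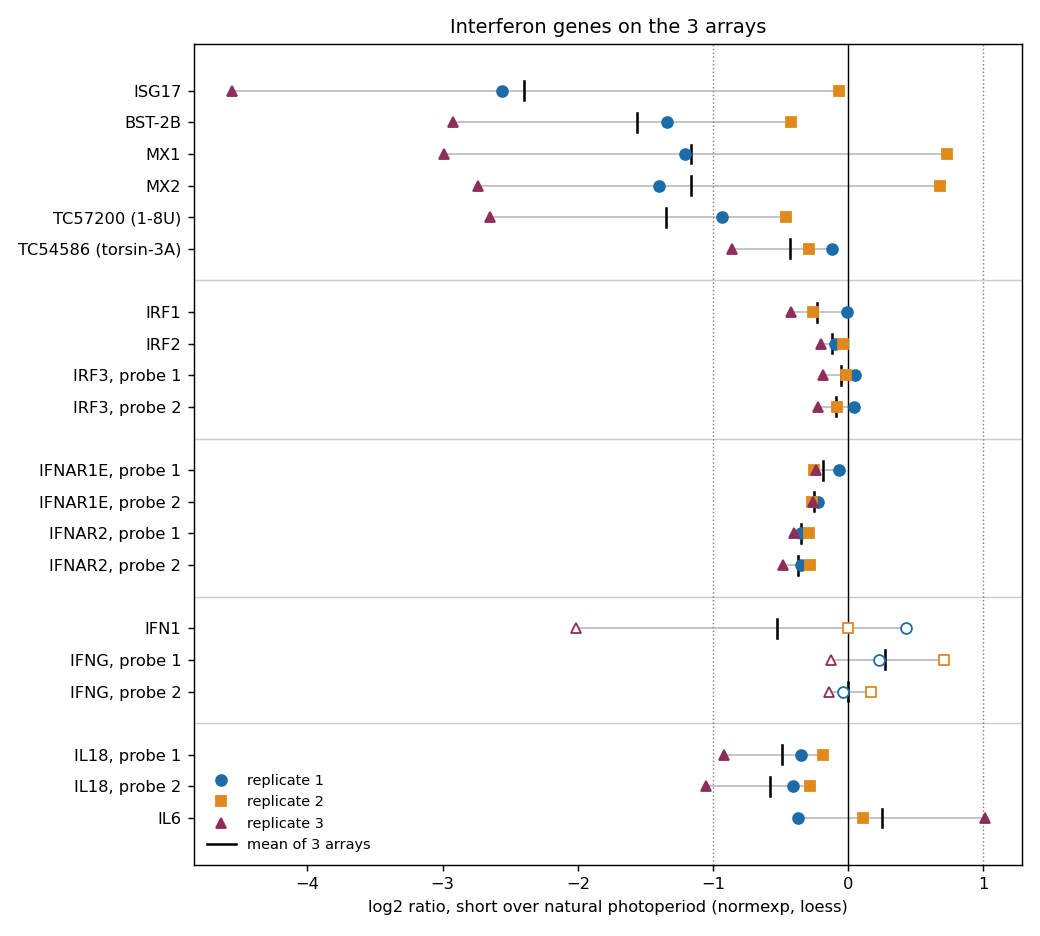
Log2 ratio of short over natural photoperiod for 20 of the 21 probes of the interferon genes (x axis), grouped from top to bottom as induced genes, regulatory factors, receptors, interferons and interleukins. Each coloured symbol is 1 array with its pair of goats, the black bar is the mean, the dotted lines mark -1 and 1, and hollow symbols belong to probes that were not well above background in both dyes on every array. Replicate 3 was the lowest array for every induced gene, and the receptors lay close together between -0.48 and -0.07.

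ISG17 is the sheep gene of a ubiquitin-like protein that is attached to other proteins during the interferon response, and it had the lowest mean ratio of the members. Its log2 ratio was -2.56 on replicate 1, -0.07 on replicate 2 and -4.56 on replicate 3, a mean of -2.40 ± 2.25 (SD, n = 3, limma adjusted p = 0.243). In single pairs the natural photoperiod goat had 5.89-fold, 1.05-fold and 23.5-fold the level of its fellow. The log2 level was 12.81, 12.38 and 11.81 in the short photoperiod goats and 15.37, 12.45 and 16.37 in the natural photoperiod goats. The natural photoperiod goats of replicates 1 and 3 thus stood apart from the other 4 goats, and the goat of replicate 2 lay within the range of the short photoperiod group. The same order was seen in the unprocessed Cy3 intensity, which was 25423, 4567 and 62695, while Cy5 gave 8417, 7738 and 6035.

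BST-2B is the second of the ruminant genes for tetherin, a membrane protein that holds budding virus on the cell surface. Its log2 ratios were -1.34, -0.42 and -2.92 on replicates 1, 2 and 3, with a mean of -1.56 ± 1.27 (SD, n = 3, limma adjusted p = 0.218). The log2 level was 9.21, 8.93 and 9.79 under the short photoperiod and 10.55, 9.35 and 12.71 under the natural photoperiod. All 3 pairs had the lower level in the short photoperiod goat, but the groups overlapped because the natural photoperiod goat of replicate 2 lay below the short photoperiod goat of replicate 3.

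MX1 and MX2 encode GTPases that block the replication of viruses and are neighbours in the goat gene table. MX1 had log2 ratios of -1.21, 0.73 and -2.99, a mean of -1.16 ± 1.86 (SD, n = 3, limma adjusted p = 0.422). MX2 had log2 ratios of -1.40, 0.68 and -2.74, a mean of -1.16 ± 1.72 (SD, n = 3, limma adjusted p = 0.391). For both genes the sign turned on replicate 2, where the short photoperiod goat had 1.66-fold the MX1 level and 1.60-fold the MX2 level of its fellow.

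The log2 level of MX1 was 10.24, 11.12 and 10.76 in the short photoperiod goats and 11.45, 10.38 and 13.76 in the natural photoperiod goats. That of MX2 was 11.37, 11.00 and 11.30 against 12.78, 10.32 and 14.03. The lowest MX2 level of all 6 goats was that of the natural photoperiod goat of replicate 2, and the highest levels of both genes were those of the natural photoperiod goats of replicates 3 and 1.

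TC57200 is described as the interferon-induced protein 1-8U, of the IFITM family of membrane proteins that hinder virus entry. Members of that family are near-identical, so the probe may read more than one of them. Its log2 ratios were -0.93, -0.46 and -2.65, a mean of -1.35 ± 1.15 (SD, n = 3, limma adjusted p = 0.227). The log2 level was 14.75, 14.71 and 14.26 under the short photoperiod and 15.68, 15.17 and 16.91 under the natural photoperiod. This was the only induced gene whose groups did not overlap, with every short photoperiod goat below every natural photoperiod goat. Under median centring its mean was -0.73, which left 4 of the 6 induced probes at or below -1 and 3 of 6 lower on every array.

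TC54586 is described as torsin-3A, an interferon-responsive ATPase of the endoplasmic reticulum. It had the smallest shift of the induced genes, with log2 ratios of -0.12, -0.29 and -0.86 and a mean of -0.43 ± 0.39 (SD, n = 3, limma adjusted p = 0.281). The log2 level was 13.29, 12.76 and 12.60 against 13.42, 13.05 and 13.46, with overlap of the groups.

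**Figure D2:**
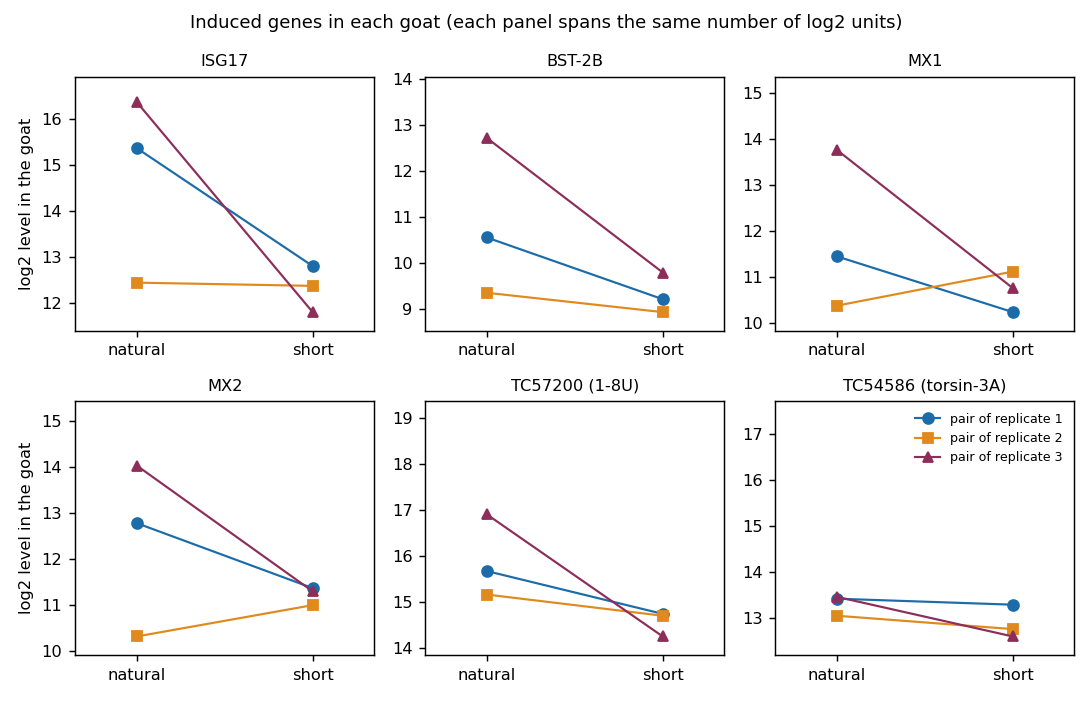
Log2 level of the 6 induced genes in each goat (y axis), with the natural and the short photoperiod goat of a pair joined by a line. There are 3 pairs and no error bars, since every goat is drawn. The lines of replicates 1 and 3 fall steeply in ISG17, MX1, MX2 and BST-2B, from natural photoperiod levels such as 15.37 and 16.37 in ISG17, while the line of replicate 2 is shallow or rises.

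The spread of these genes lay among the natural photoperiod goats. The SD of the log2 level in the natural photoperiod group was 2.04 for ISG17, 1.89 for MX2, 1.72 for MX1, 1.70 for BST-2B and 0.89 for TC57200, where the median over the 14868 probes measured on all 3 arrays was 0.25. Only 13 of these probes had a larger SD than ISG17, 20 than MX2, 33 than MX1, 36 than BST-2B and 402 than TC57200. In the short photoperiod group the SD was 0.50 for ISG17, 0.44 for BST-2B and MX1, 0.27 for TC57200 and 0.20 for MX2, beside a median of 0.22 over all probes. TC54586 did not show this, with an SD of 0.23 in the natural and 0.37 in the short photoperiod group. These SDs are given as a description, with 3 goats in each group.

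Replicate 3 had the lowest ratio for 6 of 6 induced probes and for 17 of the 21 members, against 35.4% of all probes. Without replicate 3, 1 of the 6 induced probes had a mean at or below -1 instead of 5. The means were then -1.31 for ISG17, -0.88 for BST-2B, -0.69 for TC57200, -0.36 for MX2, -0.24 for MX1 and -0.21 for TC54586. Without replicate 2 they were -3.56 for ISG17, -2.13 for BST-2B, -2.10 for MX1, -2.07 for MX2, -1.79 for TC57200 and -0.49 for TC54586.

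The 21 probes are of 16 genes, so some genes count with 2 probes, which are not separate observations. Counted over all members, 18 of the 21 probes had a mean below 0, against 51.2% of all tested probes. Lower ratios on every array were found for 12 of the 21 probes, where 22.1% of all probes had them. These 12 were 4 of 6 induced probes, 2 of 5 regulatory factor probes, 4 of 4 receptor probes and 2 of 3 interleukin probes. The 18 include the second IFNG probe, whose mean rounds to 0.00. It was well above background in Cy5 on 0 arrays. Of the 21 probes 1 was higher on every array, where 21.5% of all probes were. The unadjusted limma p was under 0.05 for 8 member probes with lower levels, against 9.41% of all tested probes, and for 0 with higher levels, against 9.05%. The 8 were those of ISG17, BST-2B and TC57200, 1 of IFNAR1E, and both each of IFNAR2 and IL18. Groups without overlap and with the lower levels under the short photoperiod were found for 4 member probes, 1 of TC57200, 2 of IFNAR2 and 1 of IL18, where 7.21% of all probes had them.

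The receptor chains had slightly lower levels under the short photoperiod, by about the same amount on each array. The median log2 ratio of their 4 probes was -0.28, -0.28 and -0.33 on replicates 1, 2 and 3. IFNAR2 is the chain that binds type I interferon most tightly. Its probe with 5 spots had log2 ratios of -0.35, -0.29 and -0.40, a mean of -0.35 ± 0.05 (SD, n = 3, limma adjusted p = 0.201). Its second probe gave -0.35, -0.28 and -0.48, a mean of -0.37 ± 0.10 (SD, n = 3, limma adjusted p = 0.198).

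The 2 IFNAR2 probes share a run of 20 bases, so they are not independent measures. On the first of them the log2 level was 11.51, 11.42 and 11.67 in the short photoperiod goats and 11.85, 11.71 and 12.07 in the natural photoperiod goats, which did not overlap. The difference was a 1.27-fold higher mean level under the natural photoperiod.

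IFNAR1E, described as a type I interferon receptor, had log2 ratios of -0.07, -0.25 and -0.24 on one probe, a mean of -0.19 ± 0.10 (SD, n = 3, limma adjusted p = 0.378). The other probe, which shares at most 9 bases in a row with it, gave -0.22, -0.27 and -0.26, a mean of -0.25 ± 0.03 (SD, n = 3, limma adjusted p = 0.258). All 4 receptor probes had a mean below 0 in each of the 10 alternatives that gave one, but with each array centred on its median instead of loess their median was -0.19 instead of -0.30, and the means of the IFNAR1E probes were -0.04 and -0.14.

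The regulatory factors differed little. The median log2 ratio of their 5 probes was 0.04, -0.04 and -0.20 on the 3 arrays. IRF1, itself induced by interferon gamma and an activator of induced genes, had log2 ratios of -0.01, -0.26 and -0.42 and a mean of -0.23 ± 0.20 (SD, n = 3, limma adjusted p = 0.368). IRF2, which binds the same sites and can repress them, had ratios of -0.10, -0.04 and -0.20 and a mean of -0.12 ± 0.08 (SD, n = 3, limma adjusted p = 0.559).

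IRF3, which starts type I interferon transcription after virus sensing, had 2 probes that share 37 bases. They gave 0.05, -0.02 and -0.19 with a mean of -0.05 ± 0.12, and 0.04, -0.08 and -0.22 with a mean of -0.09 ± 0.13 (SD, n = 3, limma adjusted p = 0.799 and 0.678). Under median centring these means were -0.27 and -0.35.

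The interferons themselves were near background. IFN1, described as interferon-alpha 4, was well above background in Cy5 on 0 arrays and in Cy3 on 2. Short photoperiod levels below the lowest signal that counted as measured were raised to it. The natural photoperiod level was then 1.16-fold the short photoperiod level in the mean of the arrays. This is no lower bound, since Cy3 was not well above background on every array either. The value rests on the pair of replicate 3. The log2 ratios were 0.43, 0.00 and -2.01, a mean of -0.53 ± 1.30 (SD, n = 3, limma adjusted p = 0.592). Without replicate 3 their mean turned to 0.21. Its Cy3 intensity was 55.57, 96.05 and 301.1 on replicates 1, 2 and 3, and its Cy5 intensity was 114.0, 131.9 and 85.97. The highest Cy3 value belonged to the natural photoperiod goat of replicate 3, which also had the highest level of every induced gene.

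IFNG, interferon gamma, was well above background in Cy5 on 2 arrays with its first probe, whose ratios were 0.23, 0.71 and -0.13 and whose mean was 0.27 ± 0.42 (SD, n = 3, limma adjusted p = 0.466). This mean was -0.13 under median centring, 0.05 without replicate 2 and 0.47 over the arrays where it was well above background in both dyes. Its second probe was well above background in Cy5 on 0 arrays, so no fold is given, and the 2 probes share at most 5 bases in a row. Interferon tau, which the array names IFNT6 and which the rule did not match, was well above background on 0 arrays in either dye.

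Of the interleukins, IL18, which induces interferon gamma, had lower ratios on every array with both probes. These were -0.35, -0.19 and -0.92 with a mean of -0.49 ± 0.38, and -0.41, -0.28 and -1.05 with a mean of -0.58 ± 0.42 (SD, n = 3, limma adjusted p = 0.241 and 0.222). Without replicate 3 these means were -0.27 and -0.34. The probes share 20 bases. The groups did not overlap on the second, with log2 levels of 13.39, 13.70 and 13.41 against 13.80, 13.97 and 14.46. IL6, once called interferon beta 2, had ratios of -0.37, 0.11 and 1.01 and a mean of 0.25 ± 0.70 (SD, n = 3, limma adjusted p = 0.649), which was -0.13 without replicate 3 and -0.14 under median centring.

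Other genes of the pathway came from lists of named genes, of which the array held few by name. In a list of 43 other interferon-induced genes only RTP4, a receptor transporter protein with antiviral activity, was on the array. Its 2 probes, which share 59 of their 60 bases, had log2 ratios of -1.49, 0.11 and -2.33, and of -1.52, 0.07 and -2.45. The means were -1.24 ± 1.24 and -1.30 ± 1.27 (SD, n = 3, limma adjusted p = 0.263 and 0.255). As with MX1 and MX2, replicates 1 and 3 were below -1 and replicate 2 was above 0.

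No other probe of these lists passed the 2-fold rule, and limma called 0 of them. Of 21 sensors and adaptors 7 genes were on the array, with 13 probes, and 8 probes had a lower and 5 a higher mean, where 51.2% of all tested probes had a lower one. The study selected TLR7, a sensor, as lower past its 2-fold rule on these same arrays. Here its probes had means of -0.83 and -0.89, short of the rule, and their shift is not independent evidence. Of 18 JAK-STAT genes 2 were on the array, and all 3 probes had a lower mean. Of 10 genes of antigen processing 3 were on the array, and all 5 probes had a lower mean. Those of B2M among them had values on only 2 arrays each.

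PSMB8, a subunit of the immunoproteasome, had ratios of -0.23, -0.58 and -1.19 and a mean of -0.67 ± 0.48 (SD, n = 3, limma adjusted p = 0.216). It was chosen after its values were seen. Replicate 3 had the lowest ratio, as in the induced genes and in 35.4% of all probes. Replicate 1 was nearest to 0, whereas for the induced median this was replicate 2. In the same list, PSME2 had replicate 2 nearest to 0 and replicate 3 lowest on both probes. Its ratios were -0.57, -0.28 and -1.11 on one probe and -0.58, -0.20 and -1.10 on the other.

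**Figure D3:**
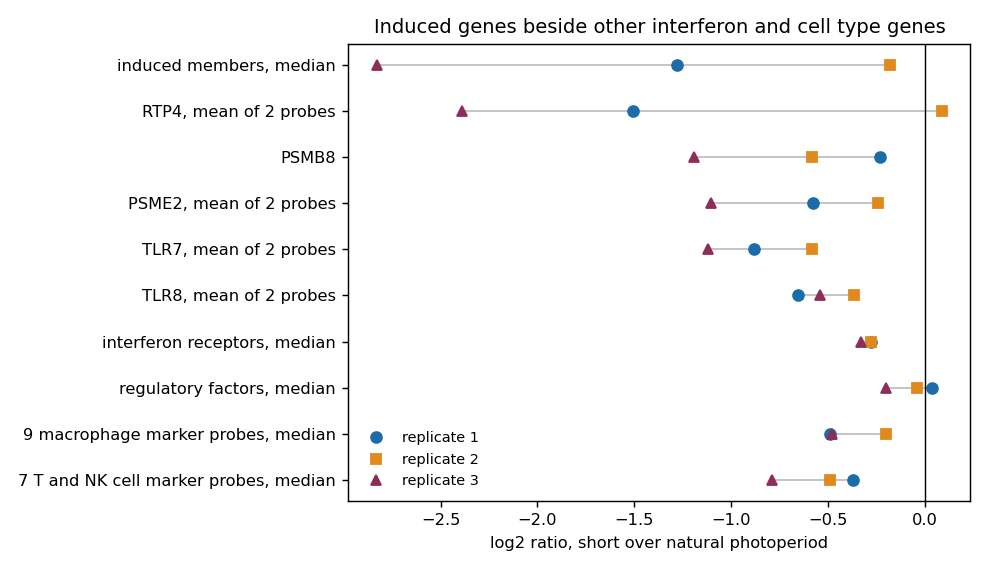
Log2 ratio of short over natural photoperiod (x axis) on each array, 1 symbol per array. The rows are the median of the 6 induced genes, single genes, and the medians of the receptor, regulatory factor and leukocyte marker probes. The single genes RTP4, PSMB8, PSME2, TLR7 and TLR8 were picked from the other pathway lists, and all had lower means. Sensors and adaptors with a higher mean are not drawn. RTP4, PSME2 and TLR7 had the same order of arrays as the induced median (-1.28, -0.18 and -2.83), and PSMB8 and TLR8 did not. The 9 macrophage marker probes and the 7 T and NK cell marker probes well above background had medians between -0.79 and -0.20.

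Markers of leukocytes also had lower levels under the short photoperiod. All 9 probes of 5 macrophage, monocyte and dendritic cell markers were lower on every array (22.1% of all probes), with medians of -0.49, -0.20 and -0.48 on replicates 1, 2 and 3. The summed level of these probes, as a linear intensity in which the brightest weigh most, was 111182, 109155 and 96178 in the short photoperiod goats and 173301, 124870 and 168281 in the natural photoperiod goats. The groups did not overlap, and the natural photoperiod goats of replicates 1 and 3 had the highest sums. Among them the Fc receptor gene FCGR1A, which interferon gamma induces, had the lowest mean of these probes (-1.09). Its log2 ratios were -1.57, -0.22 and -1.49. The study selected FCGR1A on these same arrays, so its shift is not independent evidence.

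Of 9 probes of 5 T and NK cell markers, 7 were well above background in both dyes on every array. Of these 7, 5 were lower on every array (22.1% of all probes), and their medians were -0.37, -0.49 and -0.79. The summed level of the 7 was 61499, 49935 and 50001 under the short and 80965, 73167 and 82055 under the natural photoperiod. No marker was at 0, since intensities have a background. The lists of general leukocyte, B cell and plasmacytoid dendritic cell markers had 0 genes by name on the array. The part of leukocytes in the levels of the induced genes was not tested.

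Markers of skin were detected. This says little about the label, since most tested probes (13460 of 14977) were well above background in both dyes on every array. KRT14 and TP63, of basal keratinocytes, were well above background in both dyes, and the median log2 ratio of their 3 probes was 1.32, 1.12 and 0.26. Collagen and decorin probes had a median of -0.73, -0.88 and 0.02, and hemoglobin probes, which mark blood, had 0.29, -2.03 and 1.05. SELE, an endothelial adhesion molecule and the only marker of the endothelial list found by name, had ratios of -1.17, -1.15 and -0.77 on one probe (mean -1.03) and -0.88, -0.83 and -0.26 on the other (mean -0.66). The study selected TP63 and SELE on these same arrays, so their shifts are not independent evidence. None of these 4 lists had the order of arrays that the induced genes had, and their part in the result was not tested.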

How the data were processed

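The 3 arrays carried skin RNA from 6 goats. For every spot the deposited scanner files give a mean intensity and a median local background intensity in either dye, which the authors obtained with Agilent Feature Extraction 10.7.3.1, per the file headers, and which are not normalized. The deposited log10 ratios were made by the authors from background-subtracted, lowess-normalized signals, and the log2 ratios (Cy5 over Cy3) deposited as a value table are the authors' own. Both served as alternatives.

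Here normexp background correction (offset 50) was run in R 4.3.3 with limma 3.58.1, control spots were dropped, and each array was loess-normalized. Spots flagged as outliers (38, 65 and 91 on replicates 1, 2 and 3) were left out and spots of a probe were averaged. Saturated spots numbered 0. Probes with at least 2 arrays (14977) were tested against 0 with lmFit and eBayes and Benjamini-Hochberg adjustment over all of them, at 0.05. A mean log2 ratio of at least 1 or at most -1 was the 2-fold rule. Levels of single goats followed Aquantile normalization. The script was tested on simulated data, in which a shift was the same on every array apart from noise. The induced genes do not have such a shift.

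Each array pairs goats of the same parent, which the paper states. The 1.16-fold value for IFN1 used the lowest Cy5 signal well above background on each array in place of lower short photoperiod levels. The members, the gene lists and the alternatives were chosen with earlier results of these data known. A member and some values of listed genes are not reported here. Every other member is named, with values per array where a probe was well above background in both dyes on at least 1 array. Genes of other lists are named when past the 2-fold rule, with the exceptions said in the text and captions. Of the 16 member names, 10 are symbols in the goat gene table of assembly ARS1.2, which was used for names and neighbours only. No genome was used here, so positions are not given. Probe sequences are those of the scanner files. Figures were drawn with matplotlib 3.10.9.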

Additional observations from a re-analysis of the deposited data

How the results depend on the processing

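Limma called 0 member probes (21 tested, or 19 with probes well above background only) under each of 13 alternatives: no background correction, the Feature Extraction log ratio, median centring, probes well above background only, flagged spots kept, the value table, normexp without an offset, each array left out, eBayes with trend and robust, separate channels, and channels unpaired. Over all probes 1885 were called under median centring, 161 with separate channels, 14 in the value table and 0 with unpaired channels, beside 1. Median centring moved the receptor median from -0.30 to -0.19, and it and the value table each gave 4 probes of the other pathway lists past the 2-fold rule, beside 2. Median centring also left 4 induced probes at or below -1, beside 5. Leaving out one array gave 1 to 5 induced probes at or below -1 and 0 to 3 list probes past the rule, the lowest counts without replicate 3. The induced median ran from -2.09 to -0.53. Of 208 values of single probes 199 moved by less than the SD over arrays and 9 moved further. A mean of 3 arrays cannot move by its SD when 1 array is left out. The values with an array left out therefore could not be among the 9, however large their change. A mean changed sign 7 times, in IFN1, IFNG, IL6 and the first IRF3 probe. The adjusted p of ISG17 ranged from 0.107 to 0.64 and that of BST-2B from 0.0662 to 0.725, each lowest under median centring and highest without the pairing. With 1 slide and 0 dye swaps, batch and dye could not be tested, and signals near background limit IFN1 and IFNG. Each array already is a pair, so the pairing stands in the reported fit.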

Other observations

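A search over all 14868 probes measured on all 3 arrays asked which others had the profile of ISG17, BST-2B, MX1 and MX2. Its limits were chosen after the values of the members were seen. The induced genes TC57200 and TC54586 did not meet them, with -0.93 and -0.12 on replicate 1. A ratio at or below -1 on replicate 1 and at or below -2 on replicate 3 was found for 15 probes, and 13 of these were above -0.5 on replicate 2. They were the probes of ISG17, MX1, BST-2B and MX2, the 2 probes of RTP4, and 7 probes that the array names only by a transcript record. The other 2 of the 15, GHRHR and CYP1A1, were low on replicate 2 as well (-4.46 and -3.39). The opposite profile, with the signs turned, was found for 0 probes.

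The 2 records without a gene name that had the lowest ratios on replicate 3 are shown by their probes, because a reader with a goat genome could place them. Their log2 ratios on replicates 1, 2 and 3 were -1.91, 0.18 and -3.69 for EE800624 and -1.59, 0.25 and -3.51 for GT874749, with limma adjusted p of 0.28 and 0.305.
EE800624: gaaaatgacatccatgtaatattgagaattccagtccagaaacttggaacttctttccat
GT874749: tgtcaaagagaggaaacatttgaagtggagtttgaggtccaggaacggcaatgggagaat

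Of the remaining 5 unnamed records, GT880639, FE027529, FE038149 and EE810242 had means of -1.34, -1.28, -1.25 and -1.18. CU637755, with a mean of -1.50, was not well above background in both dyes on every array.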
